A study of Mus musculus with 8 samples.

Results

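The genes described here are 42 mouse genes of DNA damage signalling and repair, chosen by name, and their expression was compared between medulloblastomas with and without Bcl2l1. A gene was represented by the probe set annotated with its symbol alone and, where several existed, by the one with the highest mean over the 8 arrays. Of the 42 genes, 40 were measured in this way among 22180 named genes, and all 40 passed the filter on dim signals that kept 15526 genes for testing. Fanca and Xrcc2 had no probe set of their own and were not analysed here. H2afx, the gene of the histone variant H2A.X, was matched under its current symbol H2ax.

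All tumours were taken at postnatal day 15 from mice carrying Math1-Cre and SmoM2, with no added treatment. Math1 (Atoh1) drives Cre in granule neuron progenitors of the cerebellum, where SmoM2, an active form of Smoothened, then turns on Sonic hedgehog signalling. The 4 Bcl2l1-deleted tumours also carried floxed Bcl2l1 alleles (genotype Math1-Cre/SmoM2/Bcl2l1 f/f), so that Cre removes the gene that encodes BCL-xL, an inhibitor of apoptosis, and the 4 controls had the genotype Math1-Cre/SmoM2. Cells outside the Math1 lineage are not reached by Cre and add their RNA to both groups. A separate status label reads deleted for all 8 tumours, the controls included, so the groups were taken from the sample titles and the genotype.

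DNA breaks are sensed by the MRN complex and by the kinases ATM and ATR, which signal through CHK2 and CHK1 to halt the cell cycle. Breaks are then repaired by homologous recombination, which copies a sister chromatid and is active mainly in S and G2 phase, or by end joining, which is available throughout the cycle. The Fanconi anaemia proteins act on crosslinks between DNA strands that block replication. Granule neuron progenitors divide rapidly after birth and depend on these pathways, and many of the genes are transcribed through E2F factors in proliferating cells.

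The promoter windows of the members that passed the test below are shown because they are the sequences nearest to the start of the changed transcripts. They come from RefSeq (build GRCm38.p6), run from 250 bases before to 50 bases after a transcript start, and lie on the plus strand at chr5:110839733-110840032 (Chek2), chr15:82016119-82016418 (Xrcc6) and chrX:164980342-164980641 (Fancb). Capitals mark matches, on either strand, to the E2F motif (TTTCCCGC, TTTGGCGC, TTTCGCGC or TTTGCCGC) and to the CCAAT box (CCAAT), which did not overlap each other in these windows.
Chek2: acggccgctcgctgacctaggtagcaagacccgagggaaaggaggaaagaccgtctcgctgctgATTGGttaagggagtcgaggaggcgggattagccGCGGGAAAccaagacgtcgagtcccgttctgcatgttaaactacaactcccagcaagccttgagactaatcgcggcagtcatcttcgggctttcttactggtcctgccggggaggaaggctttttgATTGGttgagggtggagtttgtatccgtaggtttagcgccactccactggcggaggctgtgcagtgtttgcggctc
Xrcc6: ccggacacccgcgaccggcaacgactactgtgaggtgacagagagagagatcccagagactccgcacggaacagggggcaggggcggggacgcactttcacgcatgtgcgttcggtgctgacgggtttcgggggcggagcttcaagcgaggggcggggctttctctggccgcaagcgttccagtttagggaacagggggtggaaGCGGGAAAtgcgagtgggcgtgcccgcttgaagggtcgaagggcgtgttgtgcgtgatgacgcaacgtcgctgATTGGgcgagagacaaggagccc
Fancb: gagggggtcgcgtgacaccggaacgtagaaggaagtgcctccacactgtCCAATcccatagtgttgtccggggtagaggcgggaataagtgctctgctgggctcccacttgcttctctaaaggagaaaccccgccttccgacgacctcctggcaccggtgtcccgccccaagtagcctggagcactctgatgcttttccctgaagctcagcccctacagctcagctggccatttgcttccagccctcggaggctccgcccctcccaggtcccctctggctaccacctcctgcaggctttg
The windows of Chek2 and Xrcc6 each held 1 E2F match, and that of Fancb held none, while all 3 held the CCAAT box.

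RefSeq windows were found for 35 of the 42 members. An E2F match was present for 10 of these 35 genes (28.6%), namely Bard1, Brca2, Chek2, Clspn, Fancg, Mdc1, Msh6, Rad51c, Topbp1 and Xrcc6, against 2.61% of the 27025 genes in the table, which include many non-coding and predicted genes. The CCAAT box was present for 62.9% of the members and 41.1% of all genes. The CHR element (TTTGAA or TTCGAA), known from genes of the G2 phase and mitosis, was present for 8.57% of the members and 21.7% of all genes. The median log2 change was 0.40 over the 10 tested members with an E2F match and 0.39 over the 24 without, and 0.25 and 0.27 when control replicate 2, described below, was left out. A match is a description of these letters and not evidence of binding.

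Expression was measured on 1 Affymetrix whole-transcript array per tumour, and the values are log2 RMA expression values. The targeted gene, Bcl2l1, fell by 1.36 (log2, SE 0.16, limma adjusted p = 0.00509), from 6.84 ± 0.19 (SD, n = 4) in the controls to 5.48 ± 0.15 (SD, n = 4), and the groups did not overlap. Control replicate 2 stood apart. Its correlations with the other arrays lay between 0.881 and 0.925, while every pair without it reached at least 0.956. Named genes spanned an interquartile range of 2.40 there. This range was 3.29 to 3.50 on control replicates 1, 3 and 4, and 3.59 to 3.66 after Bcl2l1 deletion. The median of 1390 olfactory and vomeronasal receptor genes, mostly background in brain, was 3.61 there. It lay between 2.94 and 3.09 on control replicates 1, 3 and 4, and between 2.79 and 2.92 after Bcl2l1 deletion. Signal range and background thus differed between the groups without overlap, also without control replicate 2. With the receptor median in the fit, the members' median change was 0.16 and 0 members passed (limma). Changes without control replicate 2 are given beside those from all arrays. The median change over all tested genes, Bcl2l1-deleted minus control, was 0.17, and 0.08 without that array. Scaling moved it to 0.34 with arrays centred on all probe sets and to -0.09 with arrays centred on the genes tested, so changes are also given relative to the median gene. Tumour markers of granule neuron progenitors were present in both groups, with Atoh1 at 11.63 ± 0.18 (SD, n = 4) after Bcl2l1 deletion and 11.17 ± 0.25 (SD, n = 4) without (adjusted p = 0.108).

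Of the 40 repair genes tested, 3 rose in the Bcl2l1-deleted tumours, 0 fell and 37 did not pass an adjusted p of 0.05 (limma, Benjamini-Hochberg over all 15526 genes). The 3 were Chek2, the checkpoint kinase downstream of ATM, Xrcc6, the Ku70 subunit that binds broken ends, and Fancb, a subunit of the Fanconi core complex. The share called higher was 7.50% of the members and 4.93% of all tested genes, and 1.60% of all genes were called lower. At an unadjusted p under 0.05, 18 members (45.0%) were higher and 0 lower, beside 23.1% of all genes higher. The 4 arrays of each group did not overlap for 14 members (35.0%), each time with the Bcl2l1-deleted tumours higher, beside 19.0% of all genes.

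The fitted change was above 0 for 38 of the 40 members and for 67.4% of all tested genes. It ranged from -0.14 for Trp53bp1 to 0.93 for Rad50, with a median of 0.43, which is 0.25 above the median tested gene. The change exceeded that of the median gene for 35 of the 40. The gap depended on the dim filter. With no filter the median gene changed by 0.04, the gap was 0.39 and 38 of 40 members lay above it. With the filter at the 50th percentile of mean signal the median gene changed by 0.26, the gap was 0.16 and 31 of 39 members lay above it. Without control replicate 2 the members' median was 0.27, 0.18 above the median gene, and 5 members were higher (12.5%, beside 8.95% of all genes higher and 4.57% lower), namely Chek2, Xrcc6, Fancb, Rad50 and Rad54l.

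**Figure D1:**
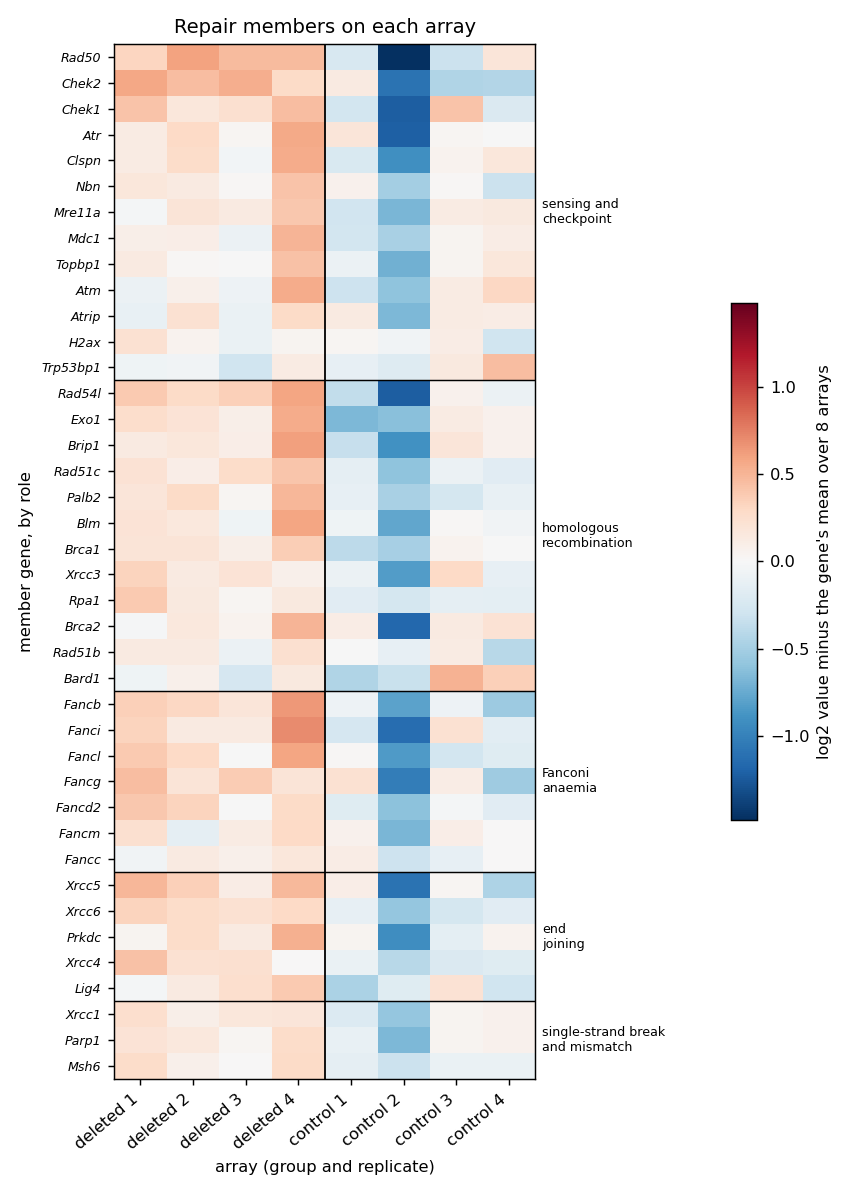
Heat map of the 40 tested members (rows, by role) on the 8 arrays (columns), coloured by the log2 value minus the gene's mean over all arrays. Control replicate 2 is the lowest array for 34 members and Bcl2l1-deleted replicate 4 the highest for 27.

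The arrays were not alike in where the members stood. Control replicate 2 held the lowest of the 8 values for 34 of the 40 members (85.0%), beside 54.6% of all tested genes. Bcl2l1-deleted replicate 4 held the highest value for 27 members (67.5%), beside 16.3% of all tested genes, and Bcl2l1-deleted replicate 1 for 10 (25.0%, beside 13.9%). The mean over the 40 members was 7.47, 7.45, 7.35 and 7.64 on Bcl2l1-deleted replicates 1 to 4 and 7.14, 6.57, 7.29 and 7.20 on control replicates 1 to 4. Each Bcl2l1-deleted mean thus lay above each control mean, with replicate 3 of the 2 groups closest. The means over all tested genes were separated in the same direction. They were 6.90 to 6.95 on the Bcl2l1-deleted arrays and 6.56 to 6.89 on the controls, so this separation was not particular to the members. The median SD of a member was 0.18 over the Bcl2l1-deleted arrays and 0.37 over the controls, where it dropped to 0.20 without control replicate 2. Over all tested genes these medians were 0.16, 0.33 and 0.19.

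Of the 13 sensing and checkpoint genes tested, 1 passed (7.69%, beside 4.93% of all genes). At an unadjusted p under 0.05 (limma), 3 were higher (23.1%, the same share as of all genes). Only 2 were higher without overlap (15.4%, beside 19.0%). Their median change was 0.36, and 0.19 without control replicate 2. Among the sensors, Rad50, the coiled-coil ATPase of the MRN complex, measured 7.10, 7.37, 7.25 and 7.25 on Bcl2l1-deleted replicates 1 to 4 and 6.54, 5.29, 6.46 and 6.96 on control replicates 1 to 4. Every Bcl2l1-deleted array was higher than every control, and control replicate 2 lay far below the rest. The change was 0.93 ± 0.30 (log2, SE), 1.91-fold, and missed the threshold (adjusted p = 0.0775). Leaving out control replicate 2 gave a smaller change, 0.59 ± 0.14, and passed (adjusted p = 0.0300, range over the alternatives 0.0132 to 0.391). The other MRN genes had smaller changes. Mre11a, the nuclease, stood at 7.87 ± 0.18 (SD, n = 4) against 7.52 ± 0.39 (SD, n = 4) in the controls (change 0.36, adjusted p = 0.252), and its change was 0.19 without control replicate 2. Nbn, the adaptor that recruits ATM, stood at 7.19 ± 0.17 (SD, n = 4) against 6.82 ± 0.27 (SD, n = 4) (change 0.37, adjusted p = 0.173), and its change was 0.26 without that array.

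Chek2 had the smallest p of all the members. It measured 7.22, 7.10, 7.18 and 6.92 on Bcl2l1-deleted replicates 1 to 4 and 6.77, 5.54, 6.20 and 6.20 on control replicates 1 to 4. The lowest Bcl2l1-deleted array lay above the highest control, control replicate 1, by a small margin. The rise was 0.93 ± 0.23 (log2, SE), 1.90-fold (adjusted p = 0.0418). It was 0.71 ± 0.16 without control replicate 2 (adjusted p = 0.0241). The call was lost without any one of the 4 Bcl2l1-deleted arrays or without control replicate 3 or 4, and it held in 10 of 20 alternatives (adjusted p between 0.00467 and 0.131).

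The kinases at the head of the checkpoint did not pass. Atm stood at 7.92 ± 0.30 (SD, n = 4) with Bcl2l1 deleted and at 7.69 ± 0.41 (SD, n = 4) in control tumours (log2 change 0.24, 95% interval -0.26 to 0.74, adjusted p = 0.482), and its change was 0.07 without control replicate 2 (adjusted p = 0.818). Atr measured 6.90, 7.08, 6.81 and 7.34 against 6.96, 5.56, 6.80 and 6.77, so that only control replicate 2 lay clearly apart, and its change of 0.51 ± 0.28 (SE) became 0.19 ± 0.14 without that array (adjusted p = 0.242 and 0.390). A second, dim Atr probe set stood at 4.68 against 4.22, a difference of 0.46, which was 0.25 without control replicate 2, its lowest array at 3.60. Chek1, the kinase that ATR activates, measured 8.12, 7.86, 7.92 and 8.15 against 7.42, 6.47, 8.11 and 7.47, with control replicate 3 inside the range of the Bcl2l1-deleted arrays (change 0.64 ± 0.29, SE, adjusted p = 0.158). Control replicate 2 lay far below the rest, and the Chek1 change was 0.34 without it. Clspn, the adaptor that presents CHK1 to ATR, changed by 0.45 ± 0.24 (SE, adjusted p = 0.217) and Topbp1, the activator of ATR, by 0.29 ± 0.21 (SE, adjusted p = 0.346). These became 0.23 and 0.10 without that array (adjusted p = 0.358 and 0.641). Atrip, the partner of ATR, had a change of 0.15 ± 0.21 (SE), which was -0.05 ± 0.13 without control replicate 2 (adjusted p = 0.632 and 0.832).

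The chromatin factors of the break response did not pass. Trp53bp1, which favours end joining over resection, had the lowest change of the members, -0.14 ± 0.18 (SE, adjusted p = 0.607, -0.23 without control replicate 2), with 8.34 to 8.76 in the Bcl2l1-deleted tumours and 8.44 to 9.09 in the controls. H2ax, whose phosphorylated form marks breaks, stood at 11.15 ± 0.13 (SD, n = 4) against 11.04 ± 0.17 (SD, n = 4) with overlapping arrays (change 0.11 ± 0.15, SE, adjusted p = 0.635), and leaving out control replicate 2 left it at 0.11. Mdc1, the reader of that mark, had a change of 0.30 ± 0.19 (SE, adjusted p = 0.285), and of 0.19 without that array.

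**Figure D2:**
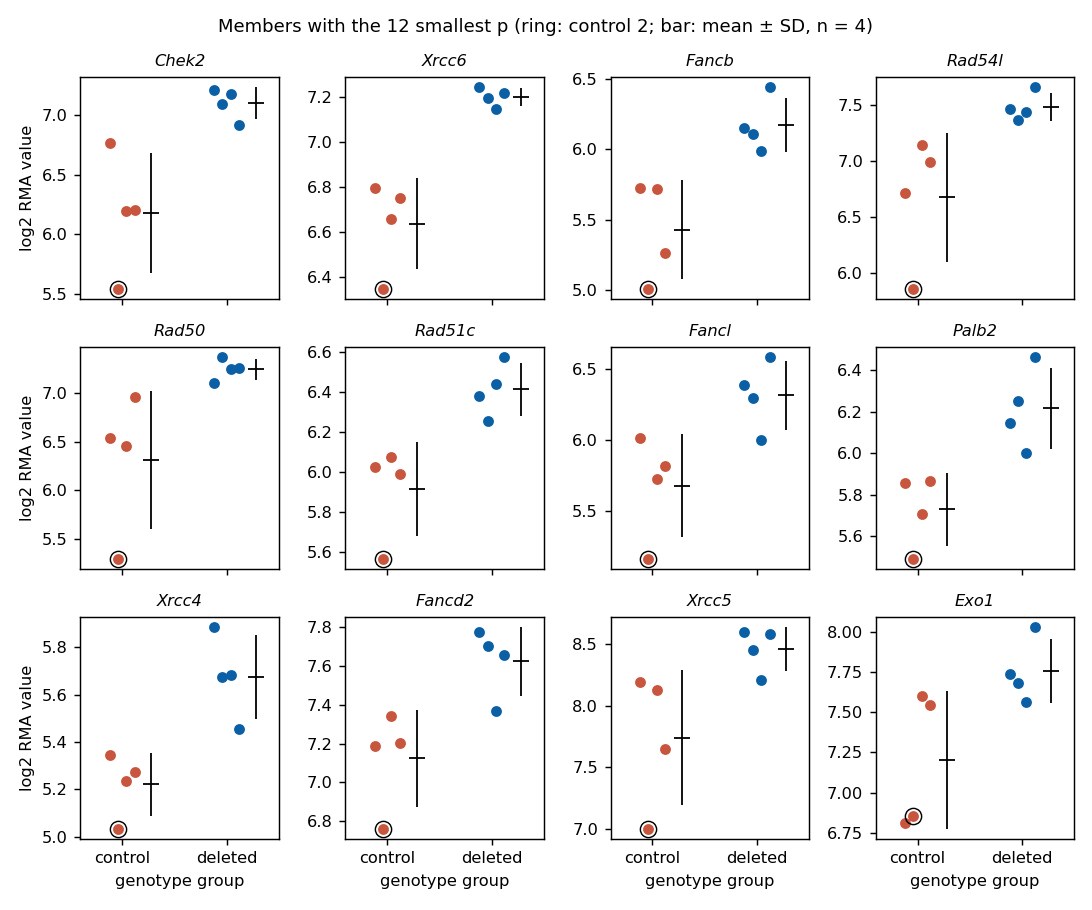
Log2 RMA values of the 12 members with the smallest p on every array (points), with the mean ± SD of each group of 4 (bars), each panel on its own axis. The ring marks control replicate 2, the lowest array for 11 of these 12, Exo1 being lowest on control replicate 1.

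Of the 12 homologous recombination genes tested 0 passed (limma). At an unadjusted p under 0.05, 6 of the 12 were higher in the Bcl2l1-deleted tumours (beside 23.1% of all genes), and 5 were higher without overlap (41.7%, beside 19.0%). Their median change was 0.43, and 0.30 without control replicate 2. Rad54l, a DNA-dependent ATPase of recombination, came closest. It measured 7.46, 7.36, 7.43 and 7.66 against 6.71, 5.85, 7.14 and 6.99 in the controls, without overlap (change 0.80 ± 0.25, SE, adjusted p = 0.0740). Without control replicate 2 the change was 0.53 ± 0.13 and passed (adjusted p = 0.0336, range over the alternatives 0.0329 to 0.354). Rad51c, a recombination gene, measured 6.38, 6.26, 6.44 and 6.58 against 6.03, 5.57, 6.07 and 5.99, again without overlap (change 0.50 ± 0.16, SE, adjusted p = 0.0800). Palb2, the bridge between BRCA1 and BRCA2, measured 6.15, 6.25, 5.998 and 6.46 against 5.85, 5.49, 5.71 and 5.87 (change 0.49 ± 0.16, SE, adjusted p = 0.0819). For all 3 genes control replicate 2 was the lowest array, and without it the changes of Rad51c and Palb2 were 0.38 and 0.41. Exo1, the nuclease that extends resected ends, measured 7.74, 7.68, 7.56 and 8.03 against 6.81, 6.86, 7.60 and 7.54, so the groups overlapped at control replicate 3 (change 0.55 ± 0.22, SE, adjusted p = 0.120, 0.44 without control replicate 2).

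Brca1, the ubiquitin ligase subunit that steers breaks into recombination, measured 7.36, 7.35, 7.25 and 7.53 against 6.78, 6.67, 7.22 and 7.16, a change of 0.42 ± 0.17 (SE, adjusted p = 0.128) without overlap, and of 0.32 without control replicate 2. Its obligate partner Bard1 measured 7.36, 7.49, 7.17 and 7.56 against 6.97, 7.09, 7.94 and 7.77. The Bard1 groups overlapped fully, with control replicates 3 and 4 highest and 1 and 2 lowest (change -0.05 ± 0.23, SE, adjusted p = 0.906, -0.16 without control replicate 2). Brca2, a central gene of recombination, measured 7.86, 8.03, 7.92 and 8.37 against 7.99, 6.70, 8.01 and 8.09. Its change of 0.35 ± 0.29 (SE) rested on control replicate 2 and was 0.02 ± 0.14 without it (adjusted p = 0.415 and 0.938). Rpa1, the large subunit of the protein that coats single strands, measured 8.53, 8.29, 8.18 and 8.29 against 7.97 ± 0.06 (SD, n = 4) without overlap (change 0.35 ± 0.14, SE, adjusted p = 0.121, 0.33 without control replicate 2). Its second, dimmer probe set differed by -0.31, with means of 4.52 and 4.83, but this rested on control replicate 2, at 5.68, and the difference was -0.03 without it. The helicase genes Blm and Brip1 changed by 0.44 ± 0.21 and 0.50 ± 0.24 (SE, adjusted p = 0.185 and 0.180), and by 0.26 and 0.28 without that array. The recombination genes Xrcc3 and Rad51b changed by 0.37 ± 0.22 and 0.21 ± 0.16 (SE, adjusted p = 0.266 and 0.378), and by 0.16 and 0.20 without it.

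Of 7 Fanconi anaemia genes tested, 1 rose (14.3%, beside 4.93% of all genes), and 5 were higher at an unadjusted p under 0.05 (71.4%, beside 23.1%). Their median change was 0.61, and 0.38 without control replicate 2. Fancb measured 6.15, 6.11, 5.98 and 6.44 against 5.73, 5.01, 5.72 and 5.27 in the controls, without overlap. It rose by 0.74 ± 0.20 (log2, SE), 1.67-fold (adjusted p = 0.0486). Without control replicate 2 the rise was 0.60 ± 0.16 (adjusted p = 0.0375), and the call held in 7 of 20 alternatives (adjusted p between 0.0174 and 0.176). It was lost without any one of the Bcl2l1-deleted arrays or control replicates 3 and 4. Fancl, the ubiquitin ligase of the core complex, measured 6.38, 6.29, 5.99 and 6.58 against 6.01, 5.16, 5.72 and 5.81, overlapping narrowly at control replicate 1 (change 0.64 ± 0.21, SE, adjusted p = 0.0803, 0.46 without control replicate 2). Fancd2, which this ligase modifies, measured 7.77, 7.70, 7.37 and 7.66 against 7.19, 6.76, 7.34 and 7.20, without overlap (change 0.50 ± 0.17, SE, adjusted p = 0.0886, 0.38 without that array). Fanci, the partner of FANCD2, changed by 0.65 ± 0.27 (SE, adjusted p = 0.131) and Fancg, a core complex subunit, by 0.61 ± 0.26 (SE, adjusted p = 0.141), and these became 0.39 and 0.37 without control replicate 2. The groups overlapped for Fanci and for Fancg. Fancm, the helicase that anchors the complex on DNA, and Fancc, another core subunit, changed by 0.25 ± 0.20 and 0.16 ± 0.15 (SE, adjusted p = 0.395 and 0.472), and by 0.07 and 0.08 without control replicate 2.

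All 5 end joining genes had changes above that of the median gene, and 1 passed (20.0%, beside 4.93% of all genes). Their median change was 0.49, and 0.39 without control replicate 2. Xrcc6 measured 7.24, 7.20, 7.15 and 7.22 against 6.80, 6.34, 6.66 and 6.75, and the Bcl2l1-deleted arrays lay close together above every control. It rose by 0.56 ± 0.15 (log2, SE), 1.48-fold (adjusted p = 0.0478). Without control replicate 2 the rise was 0.47 ± 0.10 (adjusted p = 0.0208), and the call held in 7 of 20 alternatives (adjusted p between 0.00769 and 0.145). As with Fancb, it was lost without any one of the Bcl2l1-deleted arrays or control replicates 3 and 4. Xrcc5, the Ku80 subunit, measured 8.59, 8.45, 8.20 and 8.57 against 8.19, 7.005, 8.12 and 7.65, with Bcl2l1-deleted replicate 3 barely above control replicate 1 (change 0.71 ± 0.25, SE, adjusted p = 0.0930, 0.47 without control replicate 2). Xrcc4, the scaffold of DNA ligase IV, measured 5.89, 5.67, 5.68 and 5.46 against 5.35, 5.03, 5.24 and 5.27, without overlap (change 0.45 ± 0.15, SE, adjusted p = 0.0847, 0.39 without that array). The genes of the kinase DNA-PKcs, Prkdc, and of ligase IV, Lig4, changed by 0.49 ± 0.23 and 0.37 ± 0.18 (SE, adjusted p = 0.172 and 0.187), with overlapping groups, and by 0.26 and 0.37 without control replicate 2.

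The genes of single-strand break and mismatch repair did not pass. Msh6, the mismatch recognition subunit, measured 7.52, 7.33, 7.26 and 7.54 against 7.12, 6.94, 7.16 and 7.16 without overlap (change 0.32 ± 0.14, SE, adjusted p = 0.157, 0.27 without control replicate 2). Xrcc1, the scaffold of single-strand break repair, likewise did not overlap (0.34 ± 0.17, SE, adjusted p = 0.199), and its change was 0.20 without that array (adjusted p = 0.242). Parp1, the sensor that makes poly(ADP-ribose) at breaks, changed by 0.33 ± 0.18 (SE, adjusted p = 0.234), and by 0.17 without it.

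**Figure D3:**
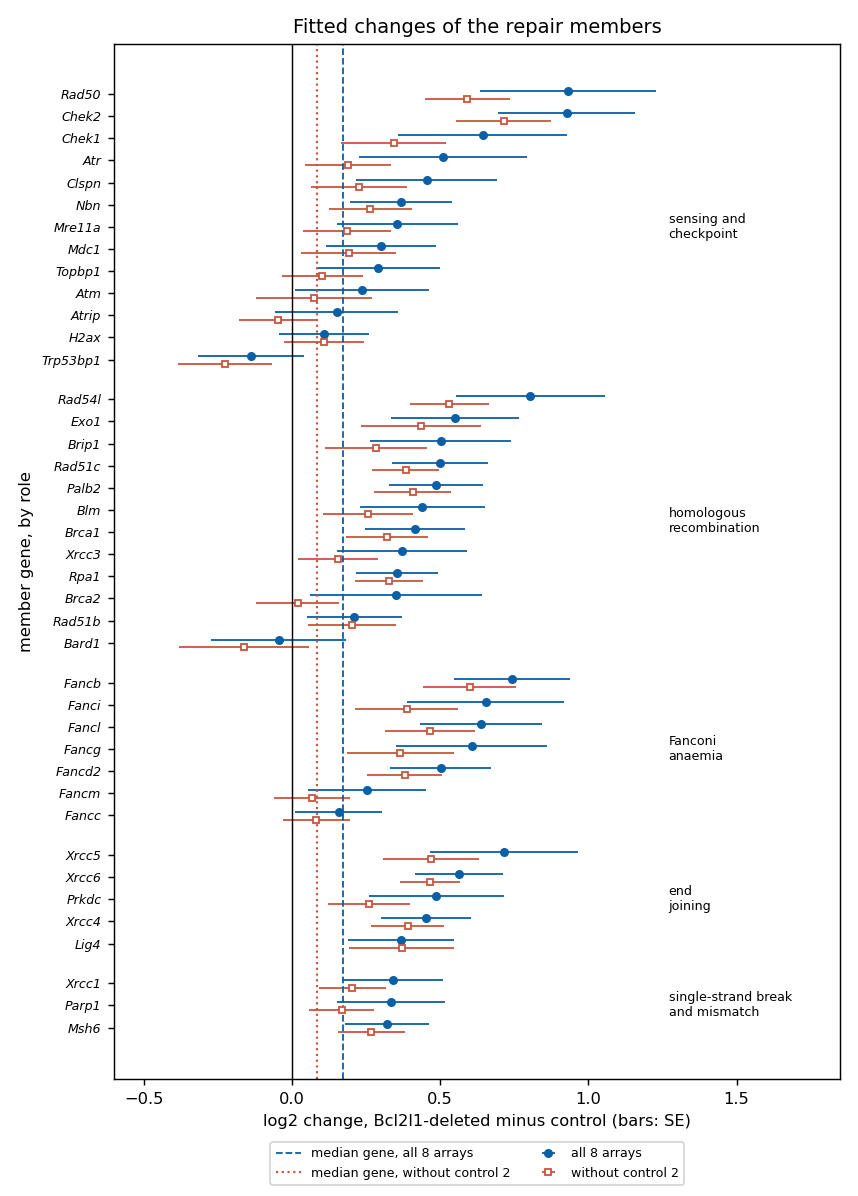
Log2 change of each tested member, Bcl2l1-deleted minus control, with its SE, for all 8 arrays (filled) and without control replicate 2 (open), beside the change of the median tested gene (dashed and dotted lines). With all arrays 35 of 40 members lie above the median gene, without control replicate 2 33 of 40.

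Other genes of the same pathways were taken from a list of 98, of which 84 were tested. Of these, 5 rose (5.95%, beside 4.93% of all genes), 0 fell and 79 did not pass. At an unadjusted p under 0.05 (limma) 33 were higher (39.3%, beside 23.1%) and 0 lower. Their median change was 0.36, 0.18 above the median gene. The median was 0.23 without control replicate 2, and 13 were then higher (15.5%, beside 8.95% of all genes) and 0 lower. Ube2t, the conjugating enzyme of the Fanconi pathway, had the largest rise, from 5.98, 5.01, 6.20 and 5.92 in the controls to 7.01, 6.99, 6.52 and 6.83 (1.06 ± 0.25, SE, adjusted p = 0.0363). Faap24, which binds FANCM, rose by 0.70 ± 0.16 (SE, adjusted p = 0.0354), from 7.58, 7.51, 7.98 and 7.50 to 8.50, 8.43, 8.16 and 8.29. Rpa3, the small subunit of the single-strand binding protein, rose by 0.74 ± 0.18 (SE, adjusted p = 0.0390), from 8.47 to 8.79 in the controls to 9.02 to 9.77. Its lowest array was control replicate 4, and its change was 0.75 without control replicate 2. Neil3, a DNA glycosylase of dividing cells, rose by 0.86 ± 0.23 (SE, adjusted p = 0.0481) and Abraxas1, the scaffold of the BRCA1-A complex, by 0.64 ± 0.17 (SE, adjusted p = 0.0496). The rises of Ube2t, Faap24, Neil3 and Abraxas1 were 0.81, 0.66, 0.65 and 0.55 without that array. Rad9a, of the checkpoint clamp, had an adjusted p of 0.0503 (change 0.68 ± 0.18, SE), and its partners Rad1 and Hus1 had adjusted p = 0.0886 and 0.171. Rad9a passed without control replicate 2 (0.52, adjusted p = 0.0245), and Rad1 and Hus1 had changes of 0.38 and 0.27.

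By pathway, 1 of 18 other sensing and checkpoint genes, 1 of 19 recombination genes, 2 of 10 Fanconi genes, 1 of 15 base excision genes and none of 5 end joining, 13 nucleotide excision or 4 mismatch repair genes rose. At an unadjusted p under 0.05 (limma), 9, 12, 3 and 2 genes were higher in the first 4 pathways, and 2, 3 and 2 in the last 3. Of all genes, 23.1% were higher at that p. The share was 13.3% of the base excision genes and 23.1% of the nucleotide excision genes, neither exceeding that of all genes. It was larger in each of the other pathways. The median changes were 0.48, 0.50, 0.29 and 0.27 for the first 4, and 0.35, 0.40 and 0.40 for the rest. Leaving out control replicate 2 gave medians of 0.30, 0.40, 0.18 and 0.14 for the first 4 and of 0.18, 0.14 and 0.22 for the rest.

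Gene groups of the cell cycle and of the cell types in the tumour were measured beside the repair genes. Replication and cell cycle genes had a median change of 0.39 over 24 tested genes, beside the 0.43 of the members, and 2 of the 24 rose, Aurkb (0.62 ± 0.14, SE, adjusted p = 0.0354) and Ccne1 (0.70 ± 0.17, SE, adjusted p = 0.0403). All 24 had a change above 0, and 12 of the 24 were higher at an unadjusted p under 0.05 (limma). Among the members 18 of 40 were higher at that p, and 23.1% of all genes. The groups did not overlap for 12 of the 24, each time with the Bcl2l1-deleted tumours higher. The same held for 14 of the 40 members and for 19.0% of all genes. The median of the 24 was 0.28 without control replicate 2, and 5 were then higher (20.8%, beside 8.95% of all genes). Mki67 and Pcna, general markers of proliferation, were picked after their values were seen. They had the smallest changes of the 24 and so do not stand for the list. They changed by 0.05 ± 0.19 and 0.03 ± 0.13 (SE, adjusted p = 0.872 and 0.908), and Mki67 by -0.02 without that array. Granule neuron progenitor markers had a median change of 0.15, and of -0.08 without control replicate 2, with 0 of 11 called (limma). At an unadjusted p under 0.05, 1 of the 11 was higher (9.09%, beside 23.1% of all genes). Markers of differentiating granule neurons fell in 7 of 11 cases, beside 1.60% of all genes. Their list mean was 6.29 to 7.60 on the Bcl2l1-deleted arrays and 7.84 to 8.83 on the controls. Microglia markers rose in 6 of 11 cases (54.5%, beside 4.93% of all genes), with a list mean of 8.13 to 8.30 against 6.76 to 7.70. Oligodendrocyte markers fell in 2 of 8 cases (beside 1.60% of all genes), with list means of 6.03 to 7.55 and 7.20 to 8.56. Of these 8, only Cnp had a change above 0 (0.64 ± 0.27, SE, adjusted p = 0.142). Choroid plexus markers fell in 2 of 6 cases, with list means of 5.61 to 6.05 and 6.93 to 7.37. Of 3 tested lymphocyte markers 0 passed (limma, 0 at an unadjusted p under 0.05), with list means of 4.56 to 4.96 and 4.63 to 4.84. When control replicate 2 was left out, 9 markers of differentiating granule neurons, 4 of oligodendrocytes and 2 of choroid plexus were lower and 6 of microglia higher. Of all genes, 4.57% were then lower and 8.95% higher. In bulk tissue a change in the number of cells of a type cannot be told apart from a change in RNA per cell, and the part these cell types have in the repair gene values was not tested.

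The difference between the log2 values of complex partners on the same array was also compared. It removes an offset shared by both genes, but not an effect of background or signal range that depends on their levels. The part of such effects in the pair differences was not tested. The 12 pairs were chosen after the values of the members were known. In 3 pairs the groups did not overlap. Brca1 minus Bard1 was between -0.14 and 0.07 on the Bcl2l1-deleted arrays and between -0.72 and -0.19 on the controls, a shift of 0.46. Atr minus Atrip shifted by 0.36, from -0.97 to -0.38 in the controls to -0.35 to -0.15. Mre11a minus Rad50 shifted by -0.58, from 0.87 to 1.72 in the controls to 0.52 to 0.84. In these last 2 pairs the control value furthest from the Bcl2l1-deleted arrays, -0.97 and 1.72, was that of control replicate 2. Each of the 3 pairs had p = 0.0286 by the exact permutation test (two-sided), the smallest that 4 against 4 arrays allow, and 0.114 after adjustment over the 12 pairs. Without control replicate 2 the shifts were 0.48, 0.24 and -0.41 (exact permutation p = 0.0286, 0.0571 and 0.0571, each 0.171 when adjusted). Brca2 minus Palb2 then shifted by -0.39 (exact permutation p = 0.0286, adjusted 0.171), against -0.14 with all arrays. The Ku subunits Xrcc5 and Xrcc6 differed in their shift by 0.15 with all arrays and by less than 0.01 without that array (exact permutation p = 0.514 and 0.971). None of the 12 pairs passed after adjustment.

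**Figure D4:**
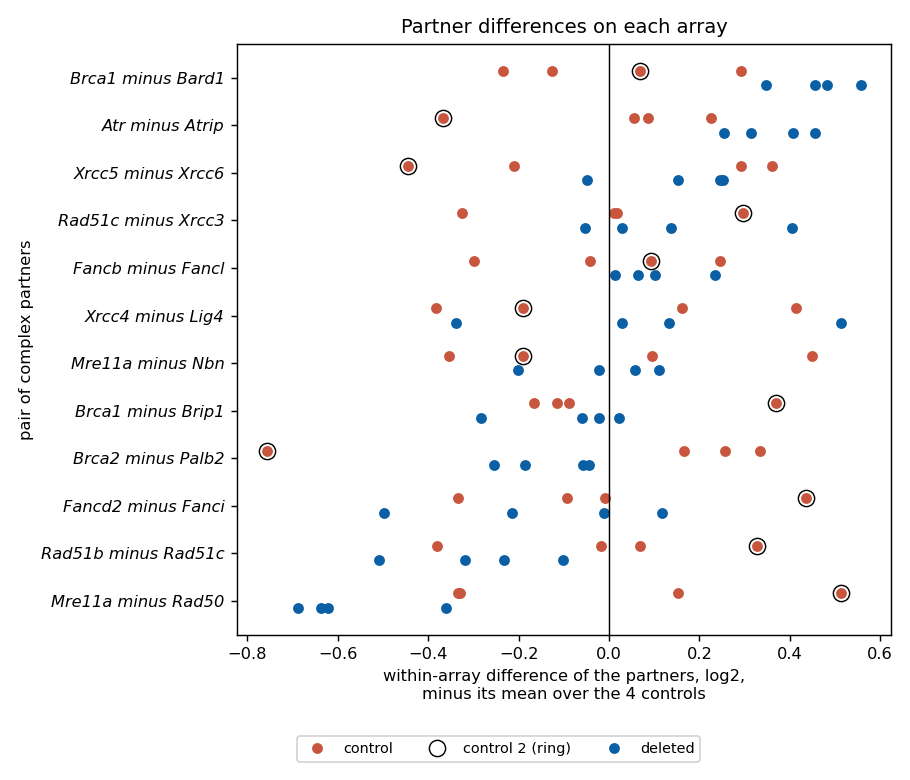
Difference between the log2 values of 2 complex partners on each array, minus its mean over the 4 controls, for 12 pairs, with controls and Bcl2l1-deleted tumours as separate points and control replicate 2 ringed. The groups do not overlap for Brca1 minus Bard1, Atr minus Atrip and Mre11a minus Rad50.

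The size of the members' shift followed the scaling and the arrays used. With all alternatives the members' median stayed above 0 and above the median gene, the gap being between 0.13 and 0.39. The number of members higher was between 0 and 11, and 0 members were lower in every alternative. Over all genes, 765 were higher and 248 lower as deposited, against 1337 and 171 with arrays centred on all probe sets, 390 and 699 centred on the genes tested, 457 and 431 after quantile normalization, and 277 and 407 when the receptor genes' median entered the fit. On the last 3 of these scales 1, 0 and 0 members were higher, and 32 to 33 of the 40 had a change above 0. The median gene changed there by -0.09, 0.03 and 0.02, and 35, 33 and 30 of the 40 members lay above it. Of the 40 members, 12 changed sign in at least 1 alternative, and 28 in none, a count that was not made over all tested genes. The 12 were Atm, Atr, Atrip, Bard1, Brca2, Fancc, Fancm, H2ax, Rad51b, Topbp1, Trp53bp1 and Xrcc3, none of which had passed the test. A pass on the same arrays favours a kept sign, so this is not separate evidence for the called members.

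**Figure D5:**
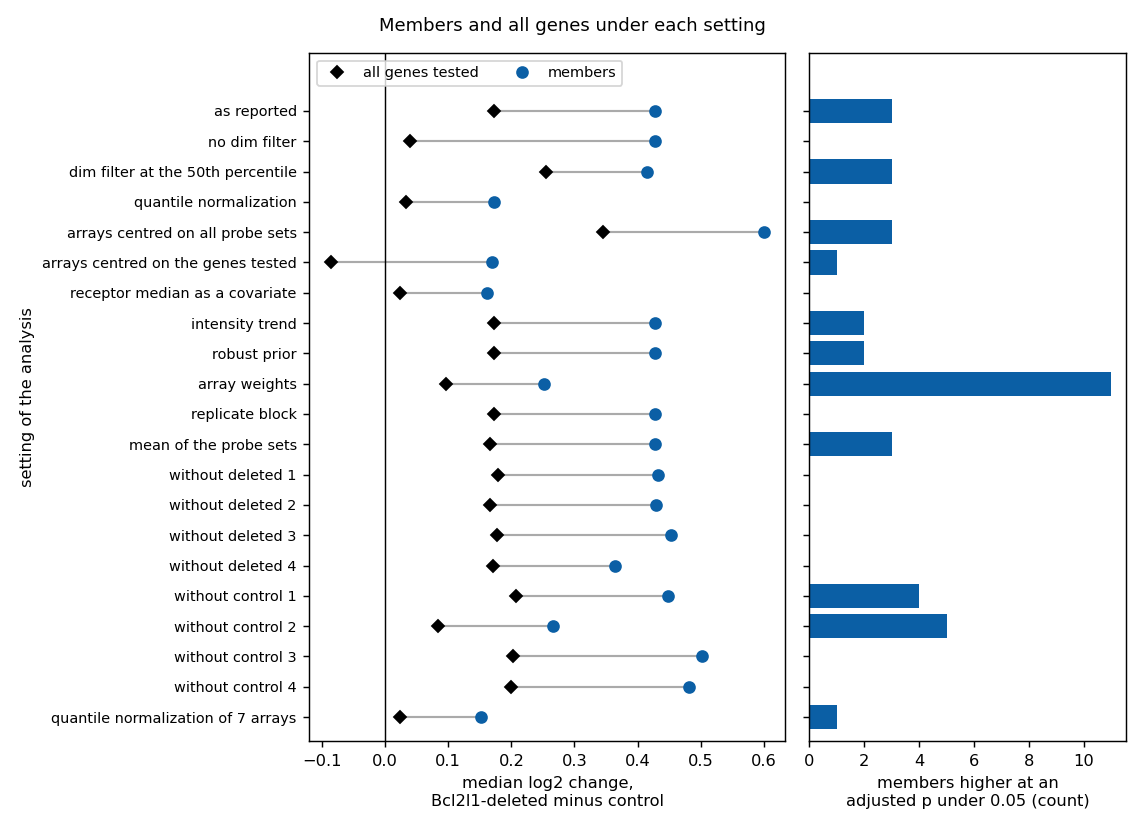
Median log2 change of the members (circles) and of all genes tested (diamonds) under each setting (left), and the number of members higher at an adjusted p under 0.05 (right). The members' median lies above that of all genes in every setting, while the count of members higher runs from 0 to 11, the last with array weights.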

How the data were processed

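Total RNA of 8 tumours was hybridised to Affymetrix whole-transcript arrays. The authors made the deposited log2 values with RMA in the Partek software, per the labels' protocols. The sources used here do not give its version, options or genome build, and the log2 scale was read from the values' range (0.68 to 13.2). Of 41345 probe sets, 23521 had 1 gene symbol, 1814 several and 16010 none in the platform annotation. The probe set with the highest mean represented a gene, and a dim filter dropped genes whose mean did not exceed the 30th percentile (4.38), which kept 15526 of 22180. The 2 groups were compared by limma 3.58.1 (R 4.3.3) with lmFit and eBayes and no other term. Two-sided p-values of the 15526 genes were adjusted by Benjamini-Hochberg, with a threshold of 0.05. The fit was run on simulated data with independent noise and known added changes. Those data held no array that stood apart and no group difference in background or signal range. They therefore do not show how the fit behaves under these features. Partner pairs were compared by exact permutation over 70 regroupings of the arrays. All members were described, with values per array for the called members and the 12 with the smallest p. Of the other lists, the called repair genes and up to 3 genes per context list with the smallest p were named. The array values of other members, and Rad9a, Rad1, Hus1, Mki67, Pcna and Atoh1, were added after their values were seen. Members and lists were chosen with earlier results of these data known. Same-numbered arrays of the groups deviated together little (correlations of 0.04, 0.02, -0.13 and 0.05), so the numbers were not taken as pairs. Promoter windows are from RefSeq. Alternatives covered the dim filter, scaling, prior, array weights, a replicate block, the probe set choice and leaving out each array.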

Additional observations from a re-analysis of the deposited data

Results flagged for a closer look

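In groups of 4 arrays, a value was singled out when its gap to the nearest other array, as a share of the group's range, exceeded Dixon's 95% critical value, which chance alone does in about 1 of 20 groups. Of 80 combinations of member and group, 8 were singled out, and 7 of these were low values on control replicate 2. The share singled out among all tested genes is not given here, so these counts are not a trait of the members. Control replicate 2 held the lowest value for 54.6% of all tested genes. Brca2 was 6.70 there (7.99 to 8.09 on the other controls), Atr 5.56 (6.77 to 6.96), Atrip 6.54 (7.32 to 7.34) and Blm 7.13 (7.83 to 7.92). Fancm was 6.29 (6.98 to 7.07), Rad51c 5.57 (5.99 to 6.07) and Msh6 6.94 (7.12 to 7.16). The remaining one was Brip1, the helicase that binds BRCA1, at 7.07 on Bcl2l1-deleted replicate 4 (6.56 to 6.63 on the other Bcl2l1-deleted arrays). That array also held the highest value of 27 of the 40 members (67.5%, beside 16.3% of all tested genes).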

How the results depend on the processing

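Of 20 alternatives, 1 was added after seeing the data, quantile normalization of the 7 arrays without control replicate 2. The 12 members with the smallest p kept their direction in every alternative that gave them a value, and Bcl2l1 was lower in all 20. These 12 members were picked by their p on the same arrays, which favours a kept sign, so this is not separate evidence for their direction. Of all 40 members, 12 changed sign in at least 1 alternative, all by scaling, the receptor covariate or array weights except that Atrip also did so without control replicate 2 and Bard1 when 1 of 3 other arrays was left out. Brca2 ranged from -0.22 to 0.52, Atr from -0.06 to 0.68, Topbp1 from -0.004 to 0.46 and Xrcc3 from -0.02 to 0.54. The number of members higher, 3 as reported, was 0 with no dim filter, 0 after quantile normalization, 0 with the receptor median as a covariate, 1 with arrays centred on the genes tested, 11 with array weights and 1 after quantile normalization of 7 arrays. Array weights gave control replicate 2 a weight of 0.10 against 0.75 to 2.60 on the others. The number of other repair genes higher, 5 as reported, was 0, 0, 1, 1 and 23 under the first 5 of these and 11 with arrays centred on all probe sets. The members' median change, 0.43 as reported, was 0.17 after quantile normalization, 0.17 centred on the genes tested, 0.16 with the receptor covariate and 0.15 after quantile normalization of 7 arrays. With the replicate block 0 members and 0 other repair genes were higher, and 358 genes in all were higher and 150 lower. Leaving out each array in turn gave 0 to 5 members higher, 0 to 13 other repair genes higher and a median of 0.27 to 0.50. No member passed without any single Bcl2l1-deleted array or without control replicate 3 or 4, and the calls of all genes then numbered 16 to 357 higher and 4 to 197 lower. Without control replicate 1, 4 members passed (1612 genes higher, 387 lower), and without control replicate 2, 5 (1390 higher, 710 lower). With no dim filter 389 genes were higher and 159 lower, and with array weights 2442 and 1052. The cause of these shifts was not tested. The adjusted p of the 3 called members lay just under the threshold, and the 4 arrays per group limit the precision.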

Other observations

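Targets of p53, the transcription factor that ATM, CHK2 and ATR signalling activates, were measured beside the repair genes. Bax and Gadd45a, also listed, had no probe set of their own. Of 15 tested genes listed as targets 2 rose (13.3%, beside 4.93% of all genes), 0 fell and 13 did not pass. At an unadjusted p under 0.05 (limma), 4 were higher (26.7%, beside 23.1% of all genes). Their median change was 0.21, 0.04 above the median gene. With control replicate 2 left out, 2 of the 15 were higher (13.3%, beside 8.95% of all genes), and the median was 0.09, 0.006 above the median gene. Gadd45b, a stress-response gene, rose by 0.79 ± 0.18 (log2, SE, limma adjusted p = 0.0346) and Ccng1, which encodes cyclin G1, by 0.67 ± 0.18 (SE, adjusted p = 0.0474). Their changes were 0.77 and 0.52 without that array, and each call held in 10 of 20 alternatives (adjusted p between 0.00567 and 0.123 for Gadd45b and between 0.00786 and 0.144 for Ccng1). Cdkn1a, the gene of the cell cycle inhibitor p21, stood at 9.58 ± 0.14 (SD, n = 4) with Bcl2l1 deleted and at 9.09 ± 0.74 (SD, n = 4) in control tumours, with overlapping groups (change 0.49, adjusted p = 0.287), and its change was 0.16 without control replicate 2. Mdm2, which degrades p53, changed by 0.21 ± 0.17 (SE, adjusted p = 0.402), and the death genes Bbc3 and Pmaip1 by -0.06 ± 0.21 and 0.04 ± 0.31 (SE, adjusted p = 0.863 and 0.934). Without that array these 3 were 0.09, -0.23 and 0.38. Cdkn1a, Mdm2, Bbc3 and Pmaip1 were picked for their known roles after their values were seen.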
